A study of Mus musculus with 10 samples.

Results

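Wnt pathway and GSK3 genes were followed in mouse embryonic stem cells (ESCs) as a set of 10 members taken by gene symbol from 21853 protein-coding genes. The members were the kinases Gsk3a and Gsk3b, the signal carrier Ctnnb1, the DNA-binding factors Tcf7, Tcf7l1 and Lef1, and the pathway targets Axin2, Sp5, Nkd1 and Cdx1. RNA had been sequenced from 5 lines with 2 libraries each, 10 in all. Naïve ESCs were wild-type J1 cells, a mouse ESC line, GKO was J1 with Gys1 (glycogen synthase 1) knocked out, AKO was J1 with AMPK knocked out through Prkaa1, its α1 catalytic subunit, and DKO had both targeted. These 4 lines share the naïve culture, on gelatin in serum-containing medium with LIF at 1000 U/ml, the MEK inhibitor PD0325901 at 1 µM and the GSK3 inhibitor CHIR99021 at 3 µM. Primed ESCs (PJ1) were wild type and grew on Matrigel with serum replacement, bFgf at 10 ng/ml and Activin at 20 ng/ml, with no CHIR99021 listed. GKO came from picked single clones, and AKO and DKO carried an RFP reporter inserted by homology-directed repair. The sources do not say which clones or cultures the 2 libraries of a line came from, so p-values measure only the spread between these libraries, and a difference between lines cannot be told apart from one between clones.

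GSK3 phosphorylates β-catenin, the product of Ctnnb1, inside a destruction complex built on Axin and APC, and marked β-catenin is degraded. When GSK3 is blocked, by a Wnt ligand or by CHIR99021, β-catenin enters the nucleus and joins the TCF/LEF factors on target genes. In naïve ESCs the prevailing factor is Tcf7l1, also called Tcf3, a repressor of Esrrb, Tfcp2l1, Klf2, Tbx3 and Nanog that β-catenin relieves. GSK3 also phosphorylates and inhibits glycogen synthase, the enzyme targeted in GKO and DKO.

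Values are TPM, an abundance scaled to the library and corrected for transcript length, so that levels of different genes can be set side by side. Differences and their standard errors (SE) are on the log2(TPM + 1) scale, which understates the change of genes at low TPM. They were tested with limma over the 12060 genes that reached 1 TPM in 2 or more libraries, and a gene was called at a Benjamini-Hochberg adjusted p under 0.05. All 10 members were among the 12060, but Nkd1 was there only through the primed libraries, and its test against primed ESCs carries no weight for that reason. Single values of 2 libraries against 2 allow no two-sided exact p below 0.333, so every call rests on the spread shared across genes.

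Each library's depth is unknown from TPM. A library held 10537 to 11113 genes at 1 TPM or more, and the median absolute log2 difference between replicates was 0.0555 to 0.0704 in the naïve-medium lines and 0.127 in primed ESCs. Of the targeted genes, Prkaa1 fell from a mean of 16.1 TPM in naïve ESCs to 7.09 TPM in AKO and 2.17 TPM in DKO. Gys1 stood at a mean of 11.1 TPM in naïve ESCs, 9.84 TPM in GKO and 11.9 TPM in DKO, so its mRNA level does not mark the DKO libraries as knocked out. The 7 naïve pluripotency markers summed to 1580 to 1850 TPM in the naïve-medium libraries and to 137 to 139 TPM in primed ESCs. The 5 primed markers summed to 40.3 to 68.8 TPM and to 378 to 429 TPM in the same order. Both sums were higher in GKO than in naïve ESCs, at 1760 to 1850 against 1580 to 1620 TPM (naïve markers) and 68.8 against 48.7 to 49.5 TPM (primed markers). Of the primed markers, Zic2 (means of 14.05 TPM in naïve ESCs and 33.5 in GKO) and Pou3f1 (1.195 and 1.66) were higher in GKO. Otx2 (5.91 and 5.68) and Dnmt3b (27.9 and 28.0) were near their naïve level, and Fgf5 was near 0 in both.

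Promoters of the target genes are where TCF/LEF factors are known to act, and those of Sp5 and Axin2 are printed because these targets differ in the motif. Sequences are the 250 bases before the start site in the RefSeq promoter table (GRCm38.p6), and each had 1 exact match on its chromosome in GRCm39, for Sp5 at chr2:70305017-70305266 and for Axin2 at chr11:108810925-108811174, both on the plus strand. Capitals mark the TCF/LEF motif, searched on both strands as CTTTGNN with each N limited to A or T, and no second motif was searched.
Sp5: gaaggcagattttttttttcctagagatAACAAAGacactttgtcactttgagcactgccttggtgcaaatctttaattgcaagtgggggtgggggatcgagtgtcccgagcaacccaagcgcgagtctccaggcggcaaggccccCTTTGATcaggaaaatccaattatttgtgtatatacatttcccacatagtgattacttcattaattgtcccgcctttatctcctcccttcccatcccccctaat
Axin2: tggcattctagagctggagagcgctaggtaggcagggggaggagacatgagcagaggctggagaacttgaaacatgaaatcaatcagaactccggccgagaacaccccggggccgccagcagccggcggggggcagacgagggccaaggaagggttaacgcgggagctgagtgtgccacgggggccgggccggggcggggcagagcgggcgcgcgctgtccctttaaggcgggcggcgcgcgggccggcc
The Sp5 promoter held 2 matches, beginning 222 and 104 bases before the start site, and the Axin2 promoter held 0. Over the 300-base windows, which run 50 bases past the start site, the motif was present for Sp5, for Gsk3a and for 1 of 4 Lef1 start sites, in 3 of 14 windows of the 9 members searched. Cdx1 was the member not searched. Of all 32851 promoter windows in the table, 5544, or 16.9%, held a match. A match is a description of the letters, and enhancers outside these windows were not searched.

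Both GSK3 genes were expressed in every line, with Gsk3a above Gsk3b. Gsk3a, which encodes GSK3α (chromosome 7, bases 24927682 to 24937564 in GRCm39), measured 48.9 and 48.0 TPM in the wild-type naïve libraries, 46.5 and 46.7 in AKO, 42.8 and 42.9 in DKO, 48.8 and 45.3 in GKO and, in primed cells, 44.3 and 42.2. The DKO libraries lay below those of the other naïve-medium lines, and GKO overlapped both naïve ESCs and AKO. Gsk3b, which encodes GSK3β (chromosome 16, bases 37909363 to 38066446), measured 13.2 and 13.45 TPM in the wild-type naïve libraries, 11.9 and 11.8 in AKO, 16.0 and 14.5 in DKO, 14.6 and 14.7 in GKO and, in primed cells, 27.0 and 23.4. Primed ESCs stood apart as the highest line, AKO was lowest, and DKO overlapped GKO. Gsk3a held 78.4% ± 0.459 (SD, n = 2) of the summed TPM of both genes in naïve ESCs, 76.3% ± 1.03 in GKO, 73.8% ± 1.34 in DKO and 63.2% ± 1.58 in primed ESCs. The summed TPM itself ran from a mean of 58.1 in DKO to 68.5 in primed ESCs. These are mRNA levels, and CHIR99021 acts on the kinases' activity, which was not measured in these libraries.

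β-catenin mRNA was the most abundant of the members. Ctnnb1 (chromosome 9, bases 120757422 to 120789579) measured 208 and 203 TPM in the wild-type naïve libraries, 205 and 199.7 in AKO, 243 and 247 in DKO, 212 and 215 in GKO and, in primed cells, 294 and 295. Naïve ESCs and AKO overlapped, and GKO, DKO and primed ESCs followed in rising order with no overlap.

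**Figure D1:**
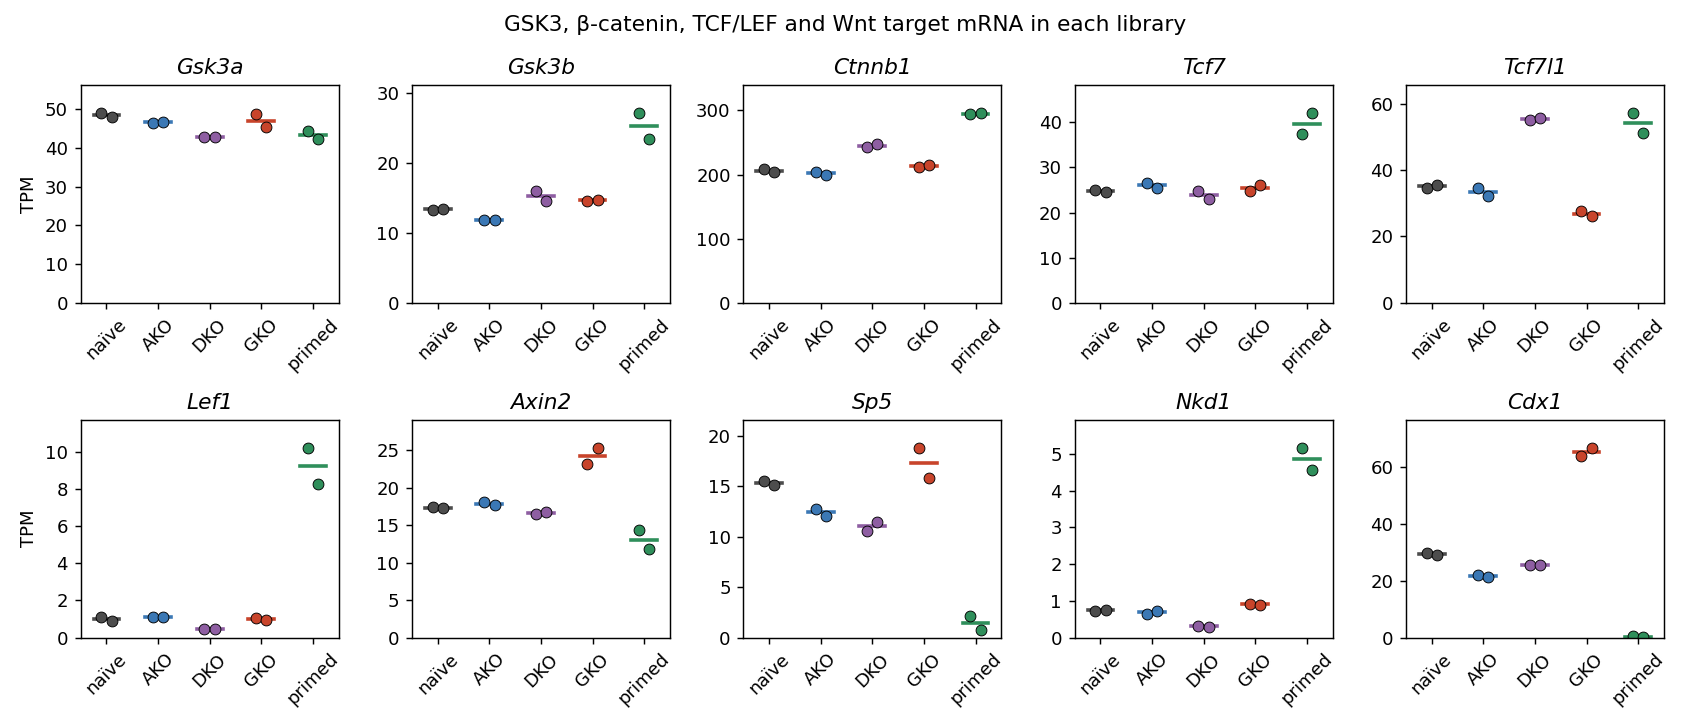
TPM of the 10 members (linear axes from 0, 1 panel a gene) in the 2 libraries of each line, with points for libraries and bars for the line's mean. Axin2 and Cdx1 were highest in GKO, Tcf7l1 was lowest in GKO and highest in DKO and primed ESCs, and Lef1, Nkd1 and Gsk3b were highest in primed ESCs.

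Among the TCF/LEF factors, Tcf7l1 separated GKO from DKO. Tcf7l1 (chromosome 6, bases 72603354 to 72766589) measured 34.5 and 35.6 TPM in the wild-type naïve libraries, 34.6 and 32.1 in AKO, 54.9 and 55.7 in DKO, 27.5 and 26.1 in GKO and, in primed cells, 57.1 and 51.1. DKO and primed ESCs overlapped at the top, naïve ESCs overlapped AKO, and GKO lay below all other lines. Tcf7, which encodes TCF1, an activating partner of β-catenin (chromosome 11, bases 52143107 to 52174619), measured 25.1 and 24.6 TPM in the wild-type naïve libraries, 26.6 and 25.5 in AKO, 24.8 and 22.9 in DKO, 24.8 and 26.1 in GKO and, in primed cells, 37.4 and 42.0. The 4 naïve-medium lines formed 1 overlapping range for Tcf7, with primed ESCs above it. Lef1, another activating partner (chromosome 3, bases 130903919 to 131018005), was near 1 TPM in naïve ESCs (1.08 and 0.883), AKO (1.13 and 1.09) and GKO (1.05 and 0.963), at 0.437 and 0.459 in DKO, and at 10.2 and 8.24 in primed ESCs. DKO was lowest and primed ESCs highest, each with no overlap with another line.

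With Tcf7l2, the remaining family member, the 4 factors summed to a mean of 68.9 TPM in naïve ESCs, 68.4 in AKO, 84.9 in DKO, 58.5 in GKO and 107 in primed ESCs. Tcf7l1 made up 50.9% ± 1.2 (SD, n = 2) of this pool in naïve ESCs, 48.8% ± 1.52 in AKO, 65.2% ± 1.68 in DKO, 45.9% ± 1.1 in GKO and 50.6% ± 2.61 in primed ESCs. The Tcf7l1 share was highest in DKO, and in primed ESCs the pool was larger than in naïve ESCs while the Tcf7l1 shares of both lay within 1 SD. Lef1 took 8.61% ± 1.06 of the pool in primed ESCs and 0.528% ± 0.0264 in DKO. Tcf7l2 itself measured 8.29 and 7.70 TPM in the wild-type naïve libraries, 5.58 and 4.73 in GKO, 5.69 and 4.86 in DKO, and 4.21 and 3.58 in primed ESCs. It fell by 0.55 in GKO (SE 0.11, adjusted p = 0.00313 from limma) and by 0.52 in DKO (SE 0.11, adjusted p = 0.00462). Tcf7l2 lies on chromosome 19, whose 394 tested genes had a median difference of -0.396 in GKO and -0.265 in DKO, against -7.46e-05 and -0.000335 for genes elsewhere, and the part of this shift in the fall of Tcf7l2 was not tested.

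**Figure D2:**
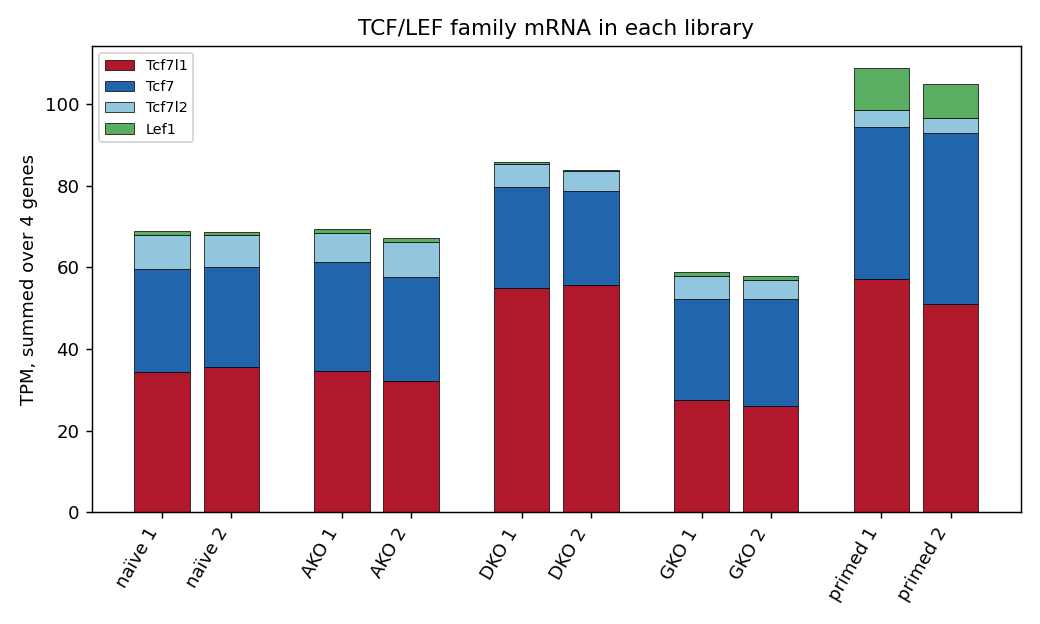
Stacked TPM (linear axis from 0) of Tcf7l1, Tcf7, Tcf7l2 and Lef1 in each of the 10 libraries. The Tcf7l1 block was tallest in DKO and primed ESCs, the summed height was lowest in GKO, and the Lef1 block was visible mainly in primed ESCs.

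The target genes did not share 1 pattern across lines. Axin2, a scaffold of the destruction complex that β-catenin induces as negative feedback (chromosome 11, bases 108811169 to 108841609), measured 17.4 and 17.2 TPM in the wild-type naïve libraries, 18.1 and 17.6 in AKO, 16.5 and 16.7 in DKO, 23.2 and 25.3 in GKO and, in primed cells, 14.4 and 11.8. No lines overlapped, but the naïve, AKO and DKO libraries together spanned only 16.5 to 18.1 TPM. Cdx1, a homeobox target of Wnt, measured 29.6 and 29.0 TPM in the wild-type naïve libraries, 22.0 and 21.3 in AKO, 25.5 and 25.6 in DKO, 63.6 and 66.5 in GKO and, in primed cells, 0.532 and 0.216. It was the member with the widest range as a ratio, nearly lost in primed ESCs and far above every other line in GKO.

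Sp5, a zinc-finger factor induced by Wnt (chromosome 2, bases 70305267 to 70308073), measured 15.5 and 15.1 TPM in the wild-type naïve libraries, 12.7 and 12.1 in AKO, 10.5 and 11.5 in DKO, 18.8 and 15.8 in GKO and, in primed cells, 2.12 and 0.709. The lines fell in the order GKO, naïve, AKO, DKO and primed without overlap, and the GKO and primed replicates were far apart for their level. Nkd1, a feedback inhibitor that acts on Dishevelled (chromosome 8, bases 89247890 to 89324577), measured 0.731 and 0.757 TPM in the wild-type naïve libraries, 0.639 and 0.730 in AKO, 0.310 and 0.299 in DKO, 0.925 and 0.893 in GKO and, in primed cells, 5.16 and 4.57. It was below 1 TPM in every naïve-medium library, lowest in DKO, and high only in primed ESCs.

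With Gys1 alone knocked out, in GKO against naïve ESCs, Cdx1 and Axin2 were higher and Tcf7l1 was lower. The rise of Cdx1 was 1.12 (SE 0.039, adjusted p = 8.38e-07 from limma), a TPM ratio of 2.22. Axin2 rose by 0.46 (SE 0.050, adjusted p = 0.000119), a ratio of 1.40. Tcf7l1 fell by 0.37 (SE 0.047, adjusted p = 0.000277), to a ratio of 0.766. Chromosome 6, which holds Tcf7l1, had a median difference of 0.138 over its 550 tested genes, opposite in direction to Tcf7l1. The other 7 members were not called, with differences of 0.16 for Sp5 (adjusted p = 0.117), 0.13 for Nkd1 (adjusted p = 0.0695), 0.13 for Gsk3b (adjusted p = 0.0808) and between -0.04 and 0.05 for Ctnnb1, Tcf7, Lef1 and Gsk3a. Thus 2 of 10 members were higher and 1 lower, against 29.1% of all tested genes called higher and 31.3% called lower, so the number called was below that of genes in general. The median difference was 0.09 over the members and -0.01 over all tested genes. Of the 4 fibroblast markers only Thy1 passed 1 TPM in GKO, at 7.14 and 8.48 TPM against 3.00 and 2.44 in naïve ESCs, while Postn was listed at 0 in both lines and Col1a1 and Col1a2 were under 1 TPM. Under quantile normalization Ctnnb1 (0.14, adjusted p = 0.00567) and Gsk3b (0.16, adjusted p = 0.0364) were called too, and the differences of Gsk3a, Lef1 and Nkd1, all uncalled, changed sign. Without replicate 2 of GKO, Sp5 passed the threshold with a difference of 0.28 (adjusted p = 0.0175).

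With both genes targeted, in DKO against naïve ESCs, more members were called, and Tcf7l1 moved the other way. Tcf7l1 rose by 0.64 (SE 0.047, adjusted p = 2.34e-05 from limma), a TPM ratio of 1.58. Ctnnb1 rose by 0.25 (SE 0.034, adjusted p = 0.000467) and Gsk3b by 0.18 (SE 0.055, adjusted p = 0.0246). Falls were called for Lef1 (-0.45, adjusted p = 0.000707), Sp5 (-0.44, adjusted p = 0.00205), Nkd1 (-0.42, adjusted p = 0.000378), Cdx1 (-0.19, adjusted p = 0.00388) and Gsk3a (-0.17, adjusted p = 0.00805). Axin2 (-0.06, adjusted p = 0.367) and Tcf7 (-0.06, adjusted p = 0.360) were not called. The 3 higher and 5 lower members compare with 26% of all tested genes called higher and 28.9% called lower. The median difference was -0.12 over the members and -0.01 over all tested genes. With the primed libraries in the fit, Gsk3b (adjusted p = 0.0777), Sp5 (adjusted p = 0.138) and Cdx1 (adjusted p = 0.131) were no longer called. Gsk3b also lost its call when either naïve library or replicate 1 of DKO was left out, with adjusted p up to 0.138, and Gsk3a lost its call without replicate 1 of naïve ESCs (adjusted p = 0.0534) and under quantile normalization (-0.09, adjusted p = 0.0801). With a pseudocount of 0.1 the falls of the low genes Lef1 and Nkd1 were larger, at -0.98 and -1.06.

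AMPK knockout alone, in AKO against naïve ESCs, gave 1 call, a fall of Cdx1 by 0.42 (SE 0.039, adjusted p = 0.0121 from limma). Over all tested genes 0.448% were called higher and 0.638% lower. The call was lost when any of the 4 naïve and AKO libraries was left out and with the primed libraries in the fit, with adjusted p between 0.0784 and 0.155. Sp5 differed by -0.28 (SE 0.080, adjusted p = 0.145), and the other 8 members lay between -0.16 and 0.09. The Cdx1 libraries of AKO were nonetheless below those of naïve ESCs, at 22.0 and 21.3 TPM against 29.6 and 29.0.

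**Figure D3:**
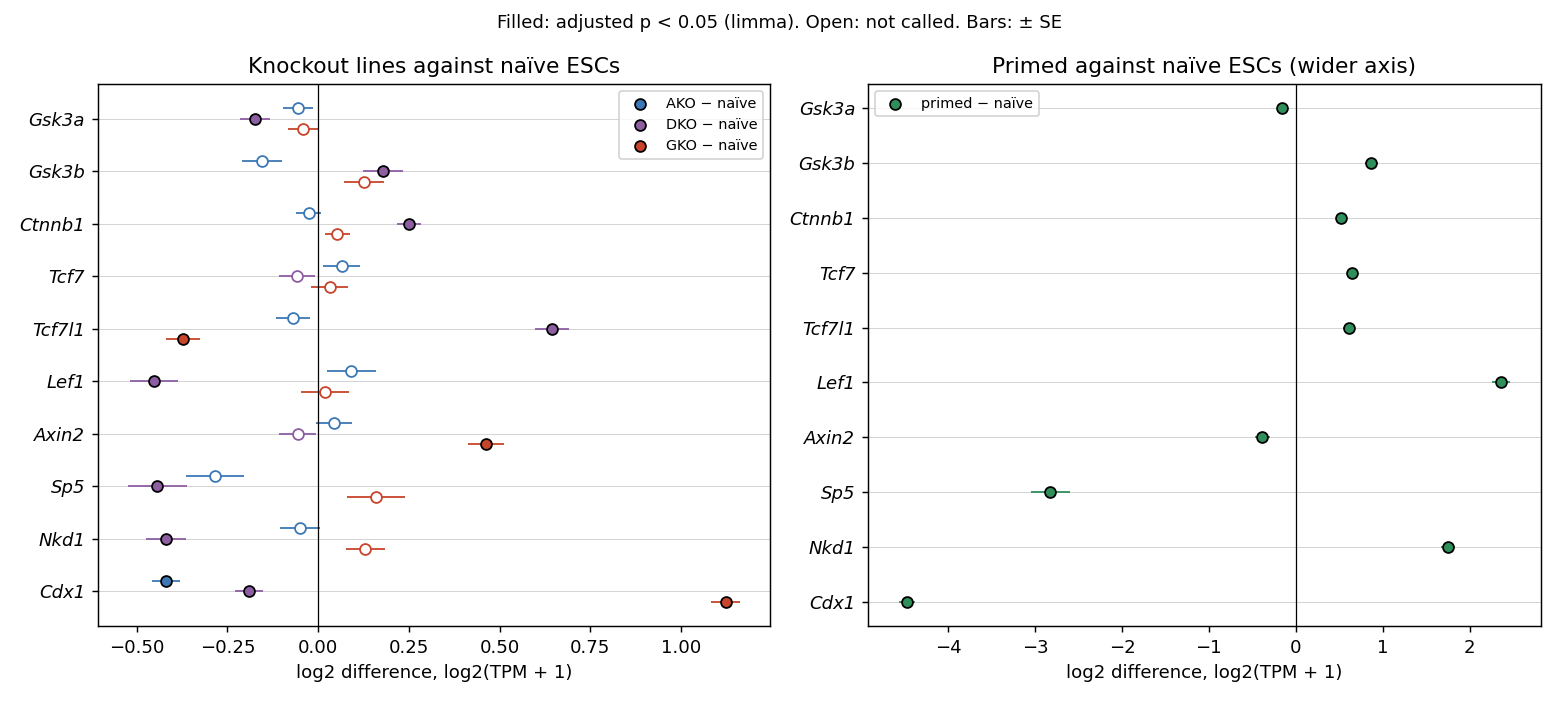
Differences from naïve ESCs on the log2(TPM + 1) scale (points, with bars of ± SE) for AKO, DKO and GKO on the left and primed ESCs on the right with a wider axis. Filled points had an adjusted p under 0.05 from limma, which for Nkd1 in primed ESCs carries no weight. Tcf7l1 lies to the left in GKO and to the right in DKO and primed ESCs, and Cdx1 spans from -4.47 in primed ESCs to 1.12 in GKO.

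The effect of Gys1 knockout was then set side by side in AMPK-intact and AMPK-knockout cells. The AMPK-knockout lines were not matched in Prkaa1, which was lower in DKO than in AKO (-1.35, adjusted p = 4.34e-06 from limma). Prkaa2, which encodes the α2 catalytic subunit, was still expressed, at a mean of 2.57 TPM in AKO and 3.20 TPM in DKO. The AMPK-intact lines were not matched either. In GKO against naïve ESCs, Prkaa1 was lower (-0.38, adjusted p = 0.00159 from limma) and Prkaa2 was higher (0.33, adjusted p = 0.00329). In AMPK-knockout cells, DKO against AKO, Tcf7l1 rose by 0.71 (adjusted p = 1.35e-05 from limma), Gsk3b by 0.34 (adjusted p = 0.00129), Ctnnb1 by 0.28 (adjusted p = 0.000281) and Cdx1 by 0.23 (adjusted p = 0.00156). Falls were called there for Lef1 (-0.54, adjusted p = 0.000268), Nkd1 (-0.37, adjusted p = 0.000743) and Gsk3a (-0.12, adjusted p = 0.0409). Background calls were 26.9% higher and 28.3% lower. The call of Gsk3a was lost without any 1 of the naïve, AKO or DKO libraries, with adjusted p up to 0.126, and also with no filter, with no trend, with all 10 libraries and under quantile normalization (-0.04, adjusted p = 0.38), and that of Cdx1 with the primed libraries in the fit (adjusted p = 0.0768).

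The difference between both effects, GKO minus naïve less DKO minus AKO, passed the threshold for 6 of 10 members, where 37.3% of all tested genes did. For Tcf7l1 it was -1.09 (SE 0.067, adjusted p = 5.18e-05 from limma), with a fall of Tcf7l1 in GKO against naïve ESCs and a rise in DKO against AKO. Cdx1 rose in both backgrounds but by 0.90 more with AMPK intact (SE 0.055, adjusted p = 5.18e-05). Axin2 differed by 0.56 (SE 0.071, adjusted p = 0.000771), Lef1 by 0.56 (SE 0.094, adjusted p = 0.00273) and Nkd1 by 0.50 (SE 0.077, adjusted p = 0.00198). With a pseudocount of 0.1 the values of the low genes Lef1 and Nkd1 were 1.18 and 1.21, above that of Cdx1 (0.91). For Ctnnb1 the difference was -0.22 (SE 0.048, adjusted p = 0.00863). Sp5 (0.32, adjusted p = 0.0585) and Gsk3b (-0.21, adjusted p = 0.0683) missed the threshold. Sp5 passed it under quantile normalization (0.38, adjusted p = 0.0331), median-ratio scaling (adjusted p = 0.0494), a filter at a mean of 5 TPM (adjusted p = 0.0456) and without replicate 2 of GKO (0.43, adjusted p = 0.0148), and without replicate 2 of DKO Gsk3b did (-0.27, adjusted p = 0.0294).

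**Figure D4:**
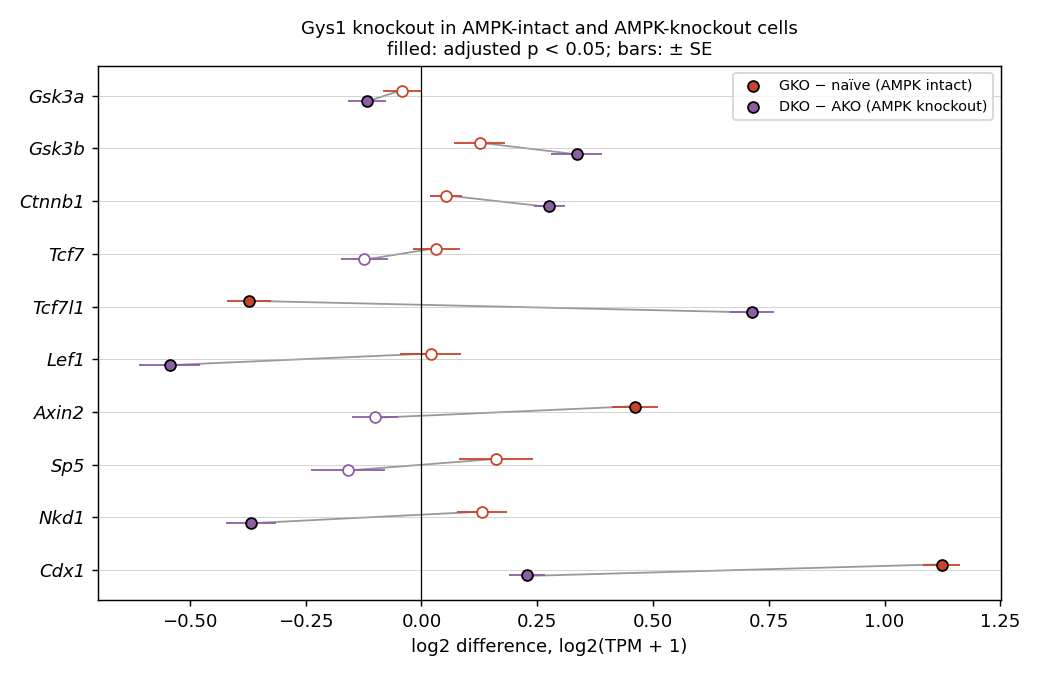
Difference that Gys1 knockout made in AMPK-intact cells (GKO minus naïve) and in AMPK-knockout cells (DKO minus AKO) for each member on the log2(TPM + 1) scale, joined by a line, with bars of ± SE and filled points for an adjusted p under 0.05 from limma. The line of Tcf7l1 runs from -0.37 to 0.71 and that of Cdx1 from 1.12 to 0.23, and the order of lengths depends on the pseudocount of 1, since Lef1 and Nkd1 lengthen with 0.1.

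GKO set directly against DKO, both with Gys1 targeted, gave a split in Tcf7l1 and Cdx1. Tcf7l1 was lower in GKO (-1.02, SE 0.047, adjusted p = 4.67e-06 from limma), a TPM ratio of 0.485, as was Ctnnb1 (-0.20, SE 0.034, adjusted p = 0.00183). The 4 targets and Lef1 were higher in GKO, Cdx1 by 1.31 (adjusted p = 1.19e-06, ratio 2.54), Sp5 by 0.60 (adjusted p = 0.000476), Nkd1 by 0.55 (adjusted p = 0.000110), Axin2 by 0.52 (adjusted p = 9.37e-05) and Lef1 by 0.47 (adjusted p = 0.000644). With a pseudocount of 0.1 the differences of Nkd1 and Lef1 were 1.32 and 1.01. Gsk3a was 0.13 higher (adjusted p = 0.0281), a call lost without either DKO library or without replicate 1 of GKO, with adjusted p up to 0.161, and also with no trend, with all 10 libraries and with only the 4 compared (adjusted p = 0.0571, 0.0552 and 0.0765). In all 6 members were higher and 2 lower, where 25.9% and 27.5% of all tested genes were. The median difference was 0.30 over the members and -0.01 over all tested genes. Sp5 lost its call with the primed libraries in the fit (adjusted p = 0.0558). T, the mesoderm factor Brachyury and itself a Wnt target, made up most of the summed level of the 4 mesoderm markers, which was 18.9 to 20.3 TPM in GKO and 6.47 to 6.53 TPM in DKO. The other 3 did not share its direction: Mixl1 was at 0.904 and 1.16 TPM in GKO and 1.30 and 1.05 in DKO, and Mesp1 and Tbx6 stayed under 1 TPM in both lines. Of the 12 further Wnt targets tested, which are described below, 1 was called higher in GKO than in DKO, T itself. Another 1 was called lower, Apcdd1 (-1.19, adjusted p = 1.22e-05 from limma), and 10 were not called.

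Of the 9 members that did not depend on the primed libraries for testing, 5 were higher and 4 lower in primed than in naïve ESCs. Over all tested genes 37.4% were called higher and 42.5% lower, so a call was common here. Lef1 rose by 2.36 (SE 0.10, adjusted p = 4.62e-08 from limma), a TPM ratio of 9.38, Gsk3b by 0.87 (adjusted p = 4.34e-06, ratio 1.89), Tcf7 by 0.65 (adjusted p = 1.4e-05), Tcf7l1 by 0.61 (adjusted p = 1.55e-05) and Ctnnb1 by 0.52 (adjusted p = 1.89e-06). Nkd1, whose entry into the test rested on primed ESCs, had a TPM ratio of 6.54. Cdx1 fell by 4.47 (SE 0.094, adjusted p = 5.87e-10), to 0.0128 of its naïve TPM. Sp5 (-2.82, SE 0.22, adjusted p = 2.6e-06) and Axin2 (-0.38, SE 0.084, adjusted p = 0.00219) fell too, and Gsk3a fell by 0.16 (SE 0.049, adjusted p = 0.0128), which turned to 0.02 and was not called under quantile normalization (adjusted p = 0.645). Of the 4 targets, Cdx1, Sp5 and Axin2 were lower, and Nkd1 was tested only because of its level in primed ESCs. Chromosome 11, which holds Tcf7 and Axin2, had a median difference of 0.301 over its 966 tested genes, against -0.0824 for genes elsewhere. Chromosome 6, which holds Tcf7l1, had a median of -0.394 over its 550 tested genes, against -0.0343 elsewhere. The part of these shifts in the differences of Tcf7, Axin2 and Tcf7l1 was not tested. Axin2 moved to -0.25 without replicate 2 of primed ESCs and was still called (adjusted p = 0.00486). The call of Gsk3a was lost without replicate 1 of naïve ESCs (adjusted p = 0.0733) or replicate 2 of primed ESCs (adjusted p = 0.0518). Markers of other cells moved along: the 2 neural markers summed to 30.6 to 32.1 TPM in primed ESCs and to 1.02 TPM or less elsewhere. Most of the neural sum in primed ESCs was Sox1 (27.2 and 29.6 TPM), with Pax6 at 3.36 and 2.48 TPM. Both neural genes reached the filter only through primed ESCs. The 4 fibroblast markers summed to 8.64 to 14.8 TPM in primed ESCs and to 2.76 to 3.32 TPM in naïve ESCs. The primed libraries, which differed in Sp5, differed in T as well (8.97 and 0.786 TPM) and in the primed marker Fgf5 (10.7 and 0.447 TPM). The other primed markers were at 5.61 TPM or more in both primed libraries. They also differed in the sum of the 4 endoderm markers (6.83 and 0.634 TPM). The part of these markers in the result was not tested. The media differ too, including the GSK3 inhibitor, and the state and the medium cannot be told apart in this comparison.

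Upstream of the members, 8 of 21 genes for Wnt ligands and their release were expressed enough to be tested. The shares of all tested genes called higher and lower, against which the counts of this and the following lists are to be read, were 29.1% and 31.3% in GKO, 26% and 28.9% in DKO, and 37.4% and 42.5% in primed ESCs. Where a gene reached the filter only through GKO or only through primed ESCs, it is left out of that line's count. Of the ligand genes 2 rose and 1 fell among 7 in GKO, 1 rose and 2 fell among 8 in DKO, and 1 rose and 2 fell among 5 in primed ESCs. Those left out were Wnt6 in GKO and Wnt1, Wnt3 and Wnt8a in primed ESCs. Wnt5b, a ligand linked to non-canonical signalling, rose in GKO from 8.73 and 7.74 TPM to 10.28 and 10.29 TPM (0.29, adjusted p = 0.00644 from limma). Wnt8a, a canonical ligand, was listed at 48.4 and 33.8 TPM in primed ESCs and at 0.727 TPM or less in every other library, and its test has no weight. Wls, the carrier that brings Wnt proteins to the cell surface, rose in primed ESCs by 3.01 to 22.7 and 17.4 TPM, whereas it fell in GKO from 1.78 and 1.41 TPM to 0.567 and 0.595 TPM.

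Of 24 receptor and receptor-turnover genes 17 were tested, with 5 higher and 7 lower in GKO, 3 higher and 6 lower in DKO, and 6 higher and 4 lower among 15 in primed ESCs, where Fzd1 and Ror1 were left out. The frizzled receptor Fzd10 was at 39.5 and 40.8 TPM in GKO against 27.1 and 27.4 TPM in naïve ESCs, a rise of 0.54 (SE 0.043, adjusted p = 2.53e-05 from limma), and was listed at 0 and 0.033 TPM in primed ESCs. Fzd2 and Fzd3, of the same family, rose in primed ESCs by 4.92 and 3.54. Lgr4, a receptor for R-spondins, fell by 0.42 in GKO and by 0.29 in DKO, and rose by 1.19 in primed ESCs. Znrf3, a ligase that removes frizzled receptors and is itself a Wnt target, fell by 0.38 in GKO and by 0.25 in DKO.

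Among the secreted inhibitors, 8 tested of 15 listed, 3 rose and 0 fell among 7 in GKO, 6 rose and 0 fell in DKO, and 4 rose and 4 fell in primed ESCs. Over all tested genes 29.1% were called higher in GKO and 26% in DKO. Sfrp5 was left out in GKO, since it reached 1 TPM only there. Sfrp1, a soluble decoy for Wnt, measured 16.6 and 16.4 TPM in the wild-type naïve libraries, 20.6 and 20.6 in GKO, 35.8 and 33.6 in DKO, and 42.8 and 64.4 in primed ESCs. Its rise was 0.31 in GKO and 1.03 in DKO (adjusted p = 0.000553 and 2.4e-06 from limma). Sfrp2, a related decoy, rose from 1.58 and 2.01 TPM to 5.86 and 6.17 TPM in GKO (1.33, adjusted p = 5.45e-05) and to 3.16 and 3.85 TPM in DKO (0.69). Notum, an enzyme that inactivates Wnt ligands, fell by 3.42 in primed ESCs.

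In the cytoplasm, all 16 genes of the destruction complex and relay were tested, with 3 higher and 6 lower in GKO, 3 higher and 6 lower in DKO, and 7 higher and 2 lower among 15 in primed ESCs, where Apc2 was left out. Btrc, which encodes the ubiquitin ligase subunit β-TrCP that recognises phosphorylated β-catenin, fell by 0.30 in GKO, by 0.44 in DKO and by 0.51 in primed ESCs. Tnks, which encodes tankyrase, an enzyme that destabilises Axin, rose by 0.29, 0.32 and 0.83 in the same lines. Amer1, a partner of APC, rose by 0.31 in GKO and fell by 0.37 in DKO. Csnk1d, a casein kinase, rose by 0.96 in primed ESCs. Whether these differences, or those in the other lists, followed a chromosome-wide shift like that given for Tcf7l2 was not tested.

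Of 17 nuclear partners 14 were tested, with 5 higher and 5 lower in GKO, 3 higher and 5 lower in DKO, and 9 higher and 4 lower in primed ESCs. Chd8, a chromatin remodeller that binds β-catenin, rose by 0.51 in GKO and by 0.55 in DKO. The Groucho-type corepressor Tle1, which TCF factors recruit, fell by 0.46 in GKO and by 0.48 in DKO. In primed ESCs Tle4 fell by 1.71, Bcl9, a coactivator, rose by 1.25, and Jup, the β-catenin relative plakoglobin, fell by 1.23.

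Further Wnt targets, 12 tested of 17, had 3 higher and 4 lower in GKO, 3 higher and 3 lower in DKO, and 2 higher and 5 lower among 10 in primed ESCs, where Cd44 and Sp8 were left out. Cdx2, a homeobox gene related to Cdx1 and known for trophectoderm, measured 2.57 and 2.66 TPM in the wild-type naïve libraries, 6.62 and 7.27 in GKO and 6.73 and 6.86 in DKO. Its rise was 1.13 in GKO and 1.11 in DKO (adjusted p = 7.19e-06 and 1.02e-05 from limma). Cdx1, by contrast, was below naïve ESCs in DKO. The other trophectoderm markers listed, Gata3 and Elf5, stayed under 1 TPM in every library and were not tested. Gata3 did not share the rise of Cdx2: its mean went from 0.77 TPM (naïve) down to 0.557 TPM (DKO) and 0.0745 TPM (GKO). Elf5 had its highest mean in GKO, at 0.1 TPM. T was singled out after its values were seen: it measured 15.7 and 14.5 TPM in the wild-type naïve libraries, 19.1 and 17.5 in GKO, 4.94 and 4.89 in DKO, and in the primed libraries as given above. Myc fell by 0.38 in GKO and by 1.36 in primed ESCs. The receptor gene Tnfrsf19 rose by 2.20 in primed ESCs. The transcription factor gene Sp8 was at 8.27 and 4.09 TPM there and at 0.503 TPM or less in every other library, which is how it came to be tested.

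All 5 listed genes that Tcf7l1 is known to repress were tested. In GKO 4 rose and 0 fell, in DKO 4 rose and 0 fell, and in primed ESCs 0 rose and 5 fell, where the shares of all tested genes called higher were 29.1% in GKO and 26% in DKO and 42.5% were called lower in primed ESCs. Nanog was not called in GKO (0.12, adjusted p = 0.0932), and Klf2 was not called in DKO (0.01, adjusted p = 0.943). Esrrb measured 186 and 174 TPM in the wild-type naïve libraries, 234 and 232 in GKO and 238 and 242 in DKO, with rises of 0.37 and 0.42 (adjusted p = 0.000112 and 7.93e-05 from limma). Tbx3 rose by 0.25 in GKO and by 0.48 in DKO, and Klf2 rose by 0.25 in GKO. In AKO, 1 gene of these 7 lists was called, where 0.448% of all tested genes were called higher and 0.638% lower. It was the cyclin gene Ccnd1, 1 of the 12 further Wnt targets tested, named after its value was seen. Ccnd1 rose by 0.23 (adjusted p = 0.035 from limma). With only the 4 naïve and AKO libraries in the fit 0 genes were called, so this call was lost there.

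Over the 8 naïve-medium libraries, the genes whose log2(TPM + 1) followed Axin2 most closely by Pearson's r were Tubgcp4 (0.994), Ampd3 (0.992) and Efnb1 (0.992), and 181 genes reached 0.95. Among the members Cdx1 came closest to Axin2, at 0.926. For Tcf7l1 the closest were Prex2 (0.994), Amph (0.992) and Snx18 (0.992), and 149 genes reached 0.95. Nkd1, below 1 TPM in all 8 libraries, stood at -0.981 and Ctnnb1 at 0.797 against Tcf7l1. Over all 10 libraries Nkd1 stood at 0.346, with the sign reversed, and Ctnnb1 at 0.803. The 8-library values describe 4 lines with 2 libraries each, so that the lines' means set most of r.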

How the data were processed

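RNA-seq of 10 libraries of mouse ESCs, 2 for each of 5 lines, was taken as deposited. The authors trimmed, aligned and quantified the reads, and the deposited values are TPM per protein-coding gene. The submitters' processing notes name Trim Galore 0.6.6, STAR 2.7.9a and RSEM 1.3.3, and list the builds GRCm38 and GRCh38, whereas the study's methods name GRCm39. The notes and methods also name different library kits. Because TPM was scaled before the table was limited to protein-coding genes and keeps no read number, depth is unknown and no interval or detection limit is given. Reads shared by similar transcripts are apportioned by RSEM's model.

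From the deposited TPM, log2(TPM + 1) of the 12060 genes reaching 1 TPM in 2 or more of 10 libraries was tested with limma 3.58.1 in R 4.3.3, with an intensity trend and Benjamini-Hochberg adjustment within each comparison. Comparisons among the knockout and naïve lines used a fit of the 8 naïve-medium libraries, and primed ESCs were compared with naïve ESCs in a fit of all 10. The study states no differential test for these libraries. On simulated data for GKO against naïve ESCs, 193 of 200 genes given a log2 change of 1 were called among 10860 genes, with 15 unchanged genes called. The simulation used normal noise around 1 mean per gene, and the changed genes were drawn from those above a log2 level of 1. In the real comparison 7286 of 12060 genes were called and most member differences were smaller. The simulation therefore gives no error rate for the calls reported here.

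Replicate numbers in the labels did not pair the samples: deviations of replicate 1 from the line mean correlated between lines at -0.128 to 0.078. Members, pathway lists and tests were chosen with earlier results of these data known. Named genes were the members, Tcf7l2 among the pathway genes, and up to 3 genes per list with the largest called difference in GKO and in primed ESCs at a mean of 5 TPM or more. Gene positions are from GRCm39 with a GENCODE annotation, and 9 of 10 members, all but Cdx1, were matched in the RefSeq promoter table. Alternatives were median-ratio scaling, quantile normalization, no trend, a pseudocount of 0.1, no filter, a mean of 5 TPM as the filter, other sets of libraries in the fit, a replicate block and each replicate left out.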

Additional observations from a re-analysis of the deposited data

Results flagged for a closer look

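The effect of Gys1 knockout differed between AMPK-intact and AMPK-knockout cells, by the interaction term in limma, for 6 of 10 members. The difference (GKO minus naïve less DKO minus AKO, on the log2 scale) was -1.09 for Tcf7l1, 0.90 for Cdx1, 0.56 for Lef1, 0.56 for Axin2, 0.50 for Nkd1 and -0.22 for Ctnnb1. Of all 12060 tested genes 37.3% had a difference of this kind, and the clones behind each line are not given, so that clone and genotype cannot be told apart. The AMPK-knockout lines, DKO and AKO, also differed in Prkaa1 mRNA (-1.35). The AMPK-intact lines, GKO and naïve ESCs, differed in it as well (-0.38).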

How the results depend on the processing

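Depth cannot be read from TPM, and with 2 libraries per line calls lean on a spread pooled over genes. The number of members called in GKO against naïve ESCs was 3, and 5 under quantile normalization. For DKO it was 8, and 5 with all 10 libraries in the fit. For AKO it was 1, and 0 with all 10 libraries, with only the 4 libraries compared, and in each fit without 1 naïve or AKO library, so that leaving out 1 library gave 0 to 1. Over all genes the AKO count of 131 became 50 with no filter, 84 with no intensity trend, 62 with the replicate block, 27 with all 10 libraries, 0 with only the 4 libraries (1954 genes had an unadjusted p under 0.05 in the 8-library fit) and 1 to 75 when 1 library was left out. No other comparison's count over all genes moved by more than 1.5 times. The replicate block left the members called at 3, 8, 1, 7, 8, 6 and 10 in GKO, DKO and AKO against naïve ESCs, DKO against AKO, GKO against DKO, the interaction and primed against naïve ESCs. Without Tcf7l2 in the pool, the Tcf7l1 share was 57.5% in naïve ESCs, 55.1% in AKO, 69.5% in DKO and 50.4% in GKO.

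Differences that changed sign, all in uncalled members but 1, were the following. Under quantile normalization in GKO against naïve ESCs, Gsk3a was at 0.047, Lef1 at -0.17 and Nkd1 at -0.057. With 1 library left out, Gsk3a ran from -0.095 (without GKO replicate 1) to 0.011 (without GKO replicate 2), Tcf7 from -0.0028 to 0.067 and Lef1 from -0.053 (without naïve replicate 2) to 0.093. In GKO against DKO, Gsk3b ran from -0.12 to 0.012 (without DKO replicate 1). The called fall of Gsk3a in primed ESCs turned to 0.024 under quantile normalization. The causes were not tested. With a pseudocount of 0.1, Lef1 and Nkd1 in DKO against AKO moved from -0.54 and -0.37 to -1.14 and -0.95.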
